A study of Homo sapiens with 60 samples.

Results

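The libraries described here were 12 of the 60 of the series. They came from A549 cells, a human lung adenocarcinoma line, kept for 24 h with a water extract of 1 of 2 single herbs at 100 or 20 µg/mL. The 12 were chosen from the labels by extract and dose, 3 libraries each for Menthae Herba (the mint herb) at 100, Menthae Herba at 20, Saposhnikoviae Radix (the root of Saposhnikovia) at 100 and Saposhnikoviae Radix at 20. The question was what changed between these doses when both herbs were read together, with 6 libraries at 100 against 6 at 20 and the extract as a block. The series profiled herbal decoctions and the herbs in them by directional RNA sequencing. From it, 9 further libraries (both herbs at 500 µg/mL, and the vehicle, 0.1% DMSO in the sample labels, a percentage the series text gives differently) and 12 libraries of the decoctions Soyo-san and Okbyeongpung-san at 100 and 20 µg/mL were used for comparison. The labels print 100 and 20 for both herbs, although the series text states that for extracts toxic below the highest dose a lower concentration and dilutions of it were used. Nothing in the labels tells if replicates were grown as cultures of their own, and each p-value therefore refers to the scatter among these libraries, which may be technical. Within each replicate the last number of the library name always differed between the doses in the same way, so place in the library series and dose cannot be told apart.

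CYP1A1 and CYP1B1, the genes given as markers of this comparison, are classical targets of the aryl hydrocarbon receptor, AhR. This receptor waits in the cytosol with chaperones, binds planar aromatic compounds, many of them from plants or smoke, and moves to the nucleus, where it pairs with ARNT and binds DNA at the core motif GCGTG. Its targets include the cytochrome P450 enzymes CYP1A1 and CYP1B1, which oxidise such compounds, and the feedback repressors AHRR and TIPARP, an ADP-ribosyltransferase. In lung epithelium the pathway is best known for its response to tobacco smoke.

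The sequences before the annotated starts of CYP1A1, chosen as the marker gene, and TIPARP, a target that rose with Menthae Herba, are shown because both carry that core. They are from RefSeq on GRCh38.p14, 5′ to 3′ on the gene's strand, with capitals at GCGTG or its reverse complement CACGC. The CYP1A1 stretch is chr15:74725529-74725778 on the minus strand, and the TIPARP stretch is chr3:156674340-156674589 on the plus strand.
CYP1A1: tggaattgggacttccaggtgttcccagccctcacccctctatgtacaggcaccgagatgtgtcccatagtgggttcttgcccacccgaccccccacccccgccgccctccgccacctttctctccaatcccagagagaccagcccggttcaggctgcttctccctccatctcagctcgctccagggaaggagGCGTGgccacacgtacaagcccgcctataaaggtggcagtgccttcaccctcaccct
TIPARP: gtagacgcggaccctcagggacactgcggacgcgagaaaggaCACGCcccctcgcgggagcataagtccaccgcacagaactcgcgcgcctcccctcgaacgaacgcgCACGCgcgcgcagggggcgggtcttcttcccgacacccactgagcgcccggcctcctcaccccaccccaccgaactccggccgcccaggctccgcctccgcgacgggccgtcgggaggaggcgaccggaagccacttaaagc
The CYP1A1 core lay 57 to 53 bases before the start. The cores of TIPARP lay 208 to 204 and 142 to 138 bases before the first of its 3 starts in the table, and the windows of the other starts held no match. The motif is short: 36.5% of the 35116 windows of 300 bases in the table (250 before to 50 after a start) held it on either strand, and 15 of the 28 named genes with a window did. The first share counts windows, whereas the second counts genes, some with several windows of which any could match. The shares are therefore not like for like. AHRR and GSTZ1, with higher values at the higher of the compared doses, were among those 15, and TUBA1B-AS1 was not. Of genes with lower values there, ID1, ID2, ID3, NR4A1, NR4A3 and CXCL5 were among them. H19, DIO2, FCGBP, ID4, ATOH8, FMNL1 and SLC26A2, also lower, were not. NQO1, SLC7A5, EREG and LTBP1, which hardly changed, held the motif too. A match was thus found among genes of either direction. A match is a description of these letters and not a site of binding.

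The 12 libraries held 22198874 to 29938037 counts. Their mitochondrially encoded share was 11.96% ± 0.708 (SD, n = 6) at 100 and 11.81% ± 0.701 (n = 6) at 20, a difference of 0.155 percentage points (exact two-sided permutation test within extracts, p = 0.74, smallest possible 0.005). Keratin KRT8 (3061 to 3495 CPM, a gene's count scaled to a common library total) and ALDH1A1 (6013 to 6546 CPM) were high in every library. On the same list of 10 epithelial genes, KRT18, KRT7, AKR1B10 and ALDH3A1 lay between 728.3 and 2940 CPM. KRT19 (23.07 to 29.11 CPM), CDH1 (28.69 to 33.53 CPM), EPCAM (4.14 to 5.61 CPM) and CLDN4 (2.22 to 3.11 CPM) were much lower. CDKN2A, which A549 has lost, was at 0.0432 CPM or below, and the surfactant genes SFTPA1, SFTPB, SFTPC and SFTPD were below 0.17 CPM. Of other alveolar type 2 markers, NKX2-1 and LAMP3 were below 0.4 CPM, NAPSA was at 0.558 to 1.2 CPM and ABCA3 at 24.64 to 30.36 CPM. Of other cells' markers, PTPRC, CD3E, MS4A1 and EMCN were at 0 in 12 of 12 libraries. The immune markers CD68 (6.62 to 10.77 CPM), CD14 (1.85 to 3.12 CPM) and ITGAM (1.02 to 1.92 CPM) were detected in all 12. The summed level of 7 immune markers was 11.4 to 13.7 CPM at 100 and 10.9 to 14.6 CPM at 20. That of 7 fibroblast markers was 38.8 to 43.8 CPM at 100 and 38.1 to 42.6 CPM at 20, most of it COL1A1. For 7 endothelial markers the sum was 0.225 to 0.635 CPM at 100 and 0.195 to 0.8 CPM at 20. In bulk RNA, fewer cells with a transcript and less of it per cell cannot be told apart.

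With both herbs together, CYP1A1, CYP1B1 and TIPARP had higher levels at 100 than at 20, and H19, NR4A1, FCGBP and several ID genes lower ones, but no single gene passed the test across all genes. By edgeR's quasi-likelihood test with Benjamini-Hochberg adjustment, 0 of 16427 genes (0%) had an adjusted p under 0.05, and 804 (4.89%) had an unadjusted p under 0.05, 356 of them higher (2.17%) and 448 lower (2.73%) at 100. The smallest adjusted p was 0.0523, shared by CYP1B1 and H19. The count was near the threshold: DESeq2 called 21 genes and a fit of the 4 group means 12. The count was 13 without Saposhnikoviae Radix 20 replicate 1, 4 without Menthae Herba 100 replicate 1, 3 without Saposhnikoviae Radix 100 replicate 2 and 1 without Menthae Herba 100 replicate 2, and 0 without each of the other 8. CYP1B1, TIPARP, NR4A1 and FCGBP were among the genes called by DESeq2, by the 4 group means and without Saposhnikoviae Radix 20 replicate 1. The median change of all genes was 0.00091 on the log2 scale and 50.8% of genes lay above 0, values that the scaling itself centres near 0.

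CYP1A1 (chr15:74719542-74725610, minus strand, GENCODE 29 on GRCh38), the enzyme most often read as a sign of AhR activity, was low throughout. With Menthae Herba it stood at 1.49, 1.15 and 1.21 CPM at 20 and at 3.19, 2.14 and 2.21 CPM at 100. With Saposhnikoviae Radix it stood at 1.21, 1.44 and 1.195 CPM at 20 and at 2.16, 1.40 and 1.79 CPM at 100. All 3 Menthae Herba libraries at 100 lay above all at 20, whereas with Saposhnikoviae Radix the lowest library at 100 fell inside the range at 20. A separation of all libraries was seen in 7.17% of all genes upward and 4.39% downward with Menthae Herba, and in 3.31% upward and 5.7% downward with Saposhnikoviae Radix. The pooled log2 fold change was 0.72 ± 0.16 (SE), 1.65-fold, with an adjusted p of 0.129 in edgeR's test and a 95% interval of 0.40 to 1.05. It was called in 3 of 10 planned or added alternatives in which it was tested.

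CYP1B1 (chr2:38066973-38109902, minus strand), the second P450 of the pathway, was measured far more precisely. Menthae Herba libraries held 99.8, 96.5 and 94.9 CPM at 20 and 131, 130 and 132 CPM at 100. Saposhnikoviae Radix libraries held 102, 97.5 and 94.2 CPM at 20 and 104, 103 and 104 CPM at 100. The doses did not overlap in either extract, but the gap was wide only with Menthae Herba. With Saposhnikoviae Radix it lay between 101.7 and 102.7 CPM, and was smaller than the spread of replicates at 20 (94.19 to 101.7 CPM). The pooled log2 fold change was 0.26 ± 0.043 (SE), or 1.197-fold, and the adjusted p of 0.0523 fell just outside the threshold.

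**Figure D1:**
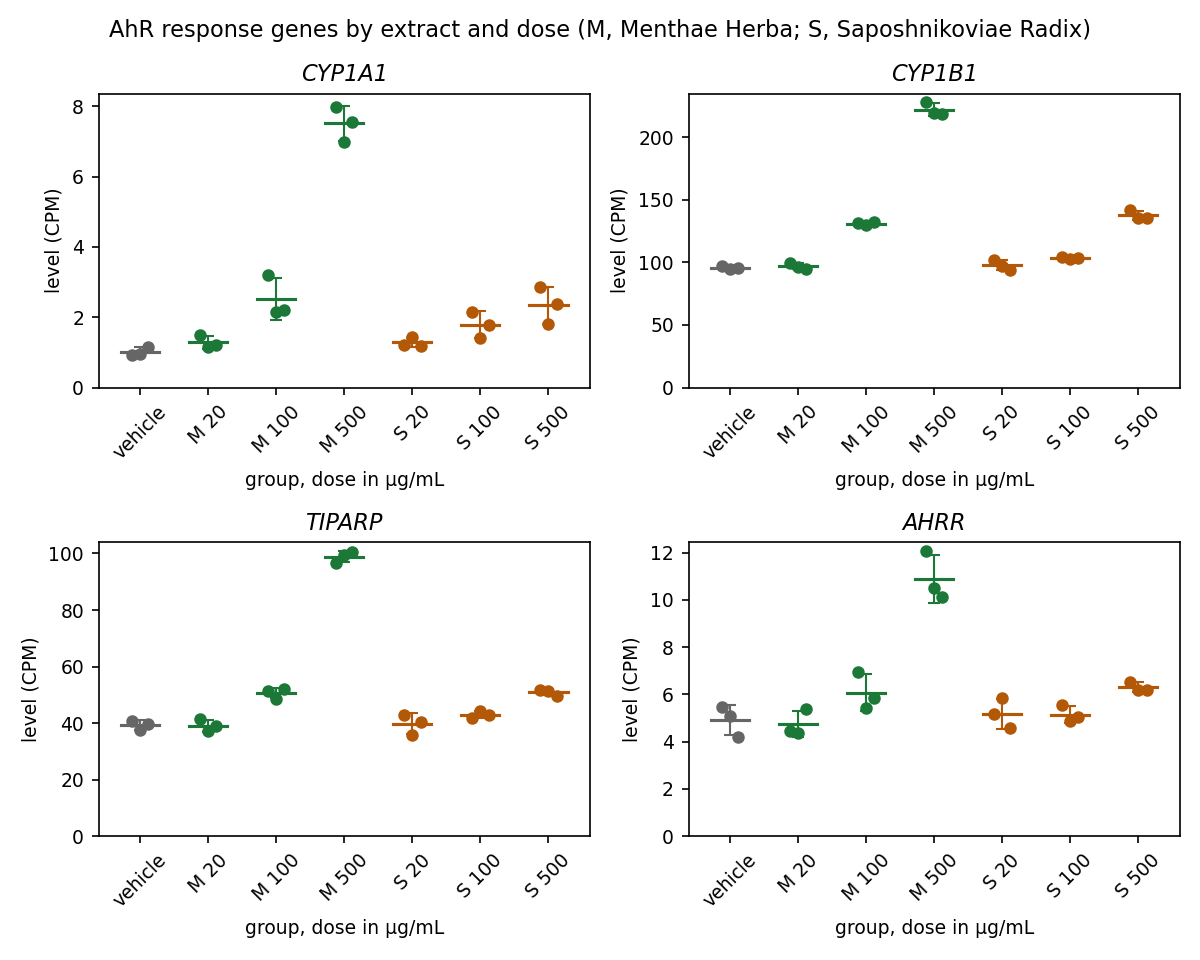
Levels of CYP1A1, CYP1B1, TIPARP and AHRR in CPM (y axis) by extract and dose (x axis); points are libraries, horizontal lines means and bars the SD of 3 libraries. CYP1B1 at 100 stood at 129.6 to 132.3 CPM with Menthae Herba and at 102.7 to 104 CPM with Saposhnikoviae Radix, beside 94.48 to 97.21 CPM in the vehicle.

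TIPARP (chr3:156673235-156706770, plus strand), which adds ADP-ribose to AhR and lowers its activity, followed CYP1B1. Menthae Herba libraries held 41.4, 37.1 and 38.9 CPM at 20 and 51.3, 48.6 and 52.0 CPM at 100, with no overlap. Saposhnikoviae Radix libraries held 43.0, 35.7 and 40.5 CPM at 20 and 41.9, 44.3 and 42.8 CPM at 100, which overlapped. The pooled log2 fold change was 0.24 ± 0.046 (SE), adjusted p 0.0699. AHRR, the repressor that competes with AhR for ARNT, held 4.38 to 5.38 CPM at 20 and 5.43 to 6.95 CPM at 100 with Menthae Herba, and 4.58 to 5.84 and 4.86 to 5.54 CPM with Saposhnikoviae Radix. Its pooled log2 fold change was 0.17 with a 95% interval of −0.02 to 0.36, and its doses overlapped with Saposhnikoviae Radix.

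Of the 14 genes on the list of AhR targets, 11 had enough counts to be tested. CYP1A2 was at 0 in the 12 libraries, and SERPINB2 and IL24 were at or below 0.0737 CPM. In the pooled comparison 0 of the 11 passed the test, 10 had a value above 0, and the median log2 fold change was 0.09, beside 0.00091 over all genes tested. At an unadjusted p under 0.05, 3 were higher (CYP1A1, CYP1B1 and TIPARP) and 0 lower, beside 2.17% of all genes higher. Of the remaining members AHRR is given above, UGT1A6 (0.09) and UGT1A1 (0.22) share exons and are uncertain, and 5 were near 0: the quinone reductase NQO1 at 0.0044, the aldehyde dehydrogenase ALDH3A1 at 0.0062, the amino acid transporter SLC7A5 at 0.04, the growth factor EREG at 0.02 and LTBP1, which binds latent TGF-beta, at −0.015. NQO1, which is also an NRF2 target, held 1561 ± 45.7 CPM (SD, n = 3) at 20 and 1555 ± 35.7 CPM at 100 with Menthae Herba, so its groups lay within their own spread. Of the 10 members of the receptor complex on a second list, 0 passed. The receptor gene AHR itself, named here after its values were seen, held 66.0 ± 0.629 CPM at 20 and 57.6 ± 0.503 CPM at 100 with Menthae Herba (SD, n = 3). With Saposhnikoviae Radix it held 65.2 ± 3.21 and 60.5 ± 2.36 CPM. Its pooled log2 fold change was −0.15 ± 0.029 (SE), adjusted p 0.0677.

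Read separately, the herbs gave different counts. For Menthae Herba 7 genes (0.0426%) passed edgeR's test, 2 higher at 100 (0.0122%) and 5 lower (0.0304%), and 991 (6.03%) had an unadjusted p under 0.05, 2.86% higher and 3.17% lower. Of the 11 tested AhR targets 2 rose and 4 were higher at that unadjusted p, with a median of 0.11, and of the 16 BMP and ID genes 0 passed and 7 were lower, with a median of −0.12. CYP1B1 rose by 0.42 ± 0.033 on the log2 scale (SE), 1.34-fold, with an adjusted p of 9.67e-07, and TIPARP rose by 0.36 ± 0.056, adjusted p 0.0171. H19 fell by 0.40, NR4A1 by 0.35, the deiodinase DIO2 by 0.22, the formin FMNL1 by 0.21 and the sulfate transporter SLC26A2 by 0.20, the last being outside the naming rule and named because the count is small. CYP1B1 was called in 6 of 6 fits that left out 1 library. The other calls were less steady: H19, TIPARP and SLC26A2 were each called in 2 of 6, NR4A1 and DIO2 in 1 of 6 and FMNL1 in 0 of 6. The count of 7 fell to 3 without Menthae Herba 100 replicate 1 or replicate 2, and to 1 without Menthae Herba 100 replicate 3, Menthae Herba 20 replicate 2 or Menthae Herba 20 replicate 3. A fit of the 21 libraries of both herbs and the vehicle called 15, and DESeq2 called 28.

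For Saposhnikoviae Radix 0 genes (0%) passed edgeR's test and 717 (4.36%) had an unadjusted p under 0.05, 2.17% higher and 2.2% lower, while DESeq2 called 2, FCGBP and a gene known by a clone name. CYP1B1 had a log2 fold change of 0.09 (95% interval 0.02 to 0.16), TIPARP 0.13 (0.01 to 0.24) and CYP1A1 0.49 (0.03 to 0.95), with an adjusted p of 0.9996 for each. For CYP1B1 the upper bound lay below the lower bound with Menthae Herba, 0.35. At that unadjusted p 3 of the 11 AhR targets were higher, with a median of 0.03, and 5 of the 16 BMP and ID genes were lower, with a median of −0.11. FCGBP had −0.61 ± 0.11 (SE), adjusted p 0.131. Without Saposhnikoviae Radix 20 replicate 1 the count was 3, among them FCGBP, and without Saposhnikoviae Radix 100 replicate 2 it was 1.

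The difference of the 2 changes was tested directly, and 2 genes (0.0122%) passed, with 5.28% of genes at an unadjusted p under 0.05, 2.62% higher and 2.67% lower. The change of CYP1B1 was larger with Menthae Herba by 0.33 ± 0.047 (SE) on the log2 scale, with an adjusted p of 0.0161. It was called in 9 of 12 fits that left out 1 library, and the adjusted p was 0.0797 without Menthae Herba 20 replicate 2, 0.0754 without Saposhnikoviae Radix 100 replicate 3 and 0.0556 without Menthae Herba 20 replicate 3. The second was FAM157B, a transcribed pseudogene of a family of near-identical copies at under 2 CPM in each of the 12 libraries, whose counts are uncertain. For TIPARP the difference was 0.23 (95% interval 0.07 to 0.40, adjusted p 0.87) and for CYP1A1 0.45 (−0.19 to 1.09, adjusted p 0.929), so neither was shown to differ between the herbs. The pooled CYP1B1 value averaged a large change and a small one.

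**Figure D2:**
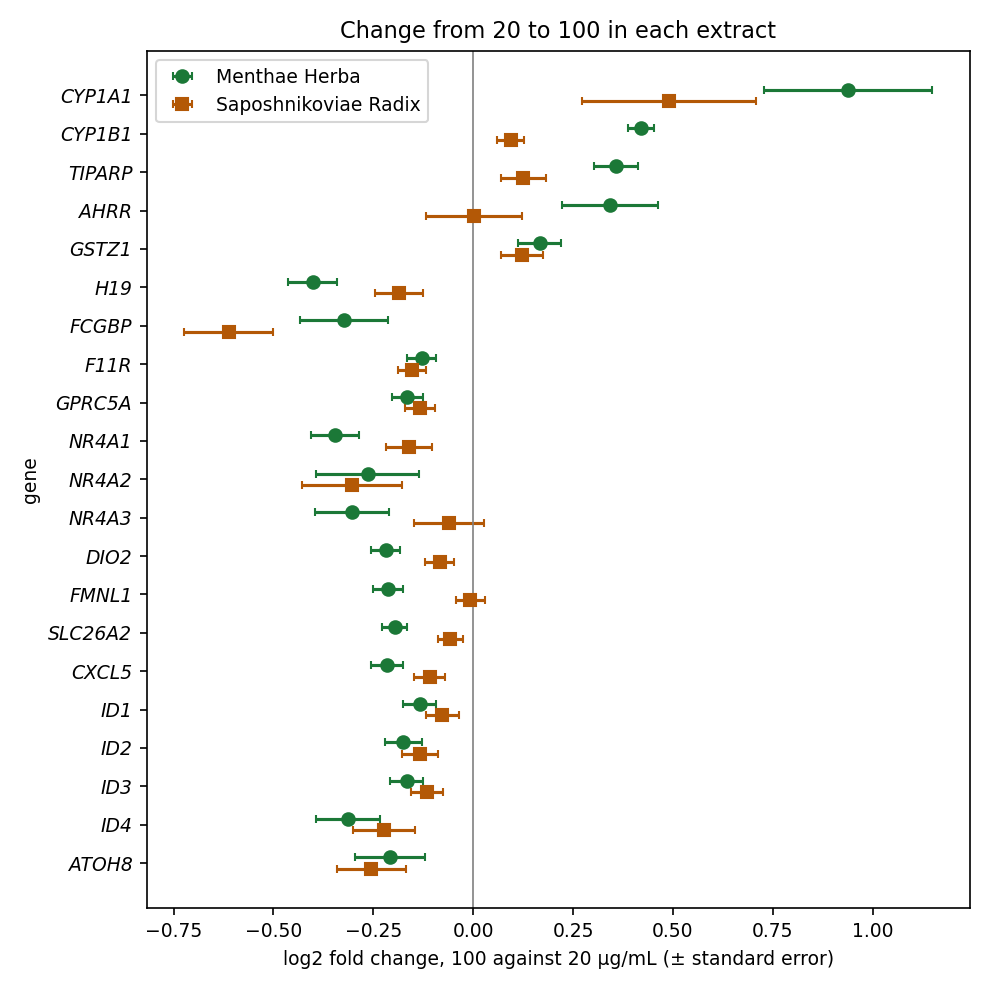
Log2 fold change from 20 to 100 µg/mL (x axis) of named genes (y axis) in each extract; circles are Menthae Herba, squares Saposhnikoviae Radix and bars the standard error of the fit. CYP1B1 stands at 0.42 and 0.09, and FCGBP, at −0.32 and −0.61, is among the genes farther from 0 with Saposhnikoviae Radix.

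Among the genes with lower values at 100, H19 (chr11:1995176-2001470, minus strand), an imprinted long noncoding RNA that is abundant in A549, had the smallest p. Menthae Herba libraries held 123, 127 and 135 CPM at 20 and 88.2, 103 and 102 CPM at 100. Saposhnikoviae Radix libraries held 120, 146 and 142 CPM at 20 and 111, 126 and 119 CPM at 100. The doses were apart with Menthae Herba and overlapped with Saposhnikoviae Radix, where the lowest library at 20 lay inside the range at 100. The pooled log2 fold change was −0.29 ± 0.048 (SE), 0.818-fold, adjusted p 0.0523.

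NR4A1 (chr12:52022832-52059507, plus strand), an orphan nuclear receptor switched on quickly by growth and stress signals, held 32.2, 33.6 and 36.0 CPM at 20 and 26.7, 26.6 and 27.3 CPM at 100 with Menthae Herba. With Saposhnikoviae Radix it held 29.6, 34.9 and 35.1 CPM at 20 and 28.9, 31.4 and 27.97 CPM at 100. The first pair of groups did not overlap and the second did. The pooled log2 fold change was −0.25 ± 0.046 (SE), adjusted p 0.0588. Its relatives NR4A2 and NR4A3 had −0.28 ± 0.088 and −0.18 ± 0.068, adjusted p 0.657 and 0.928. On the list of immediate early genes, 0 of 22 tested members passed, 15 lay below 0 and the median was −0.01. At an unadjusted p under 0.05, 5 were lower (the 3 NR4A genes, the phosphatase gene DUSP1 and KLF2) and 0 higher, beside 2.73% of all genes lower. FOS, JUN and ATF3, the classical members, were at −0.0028, 0.05 and 0.05, within 1 standard error of 0 for FOS and ATF3 and within the 95% interval of −0.02 to 0.13 for JUN.

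**Figure D3:**
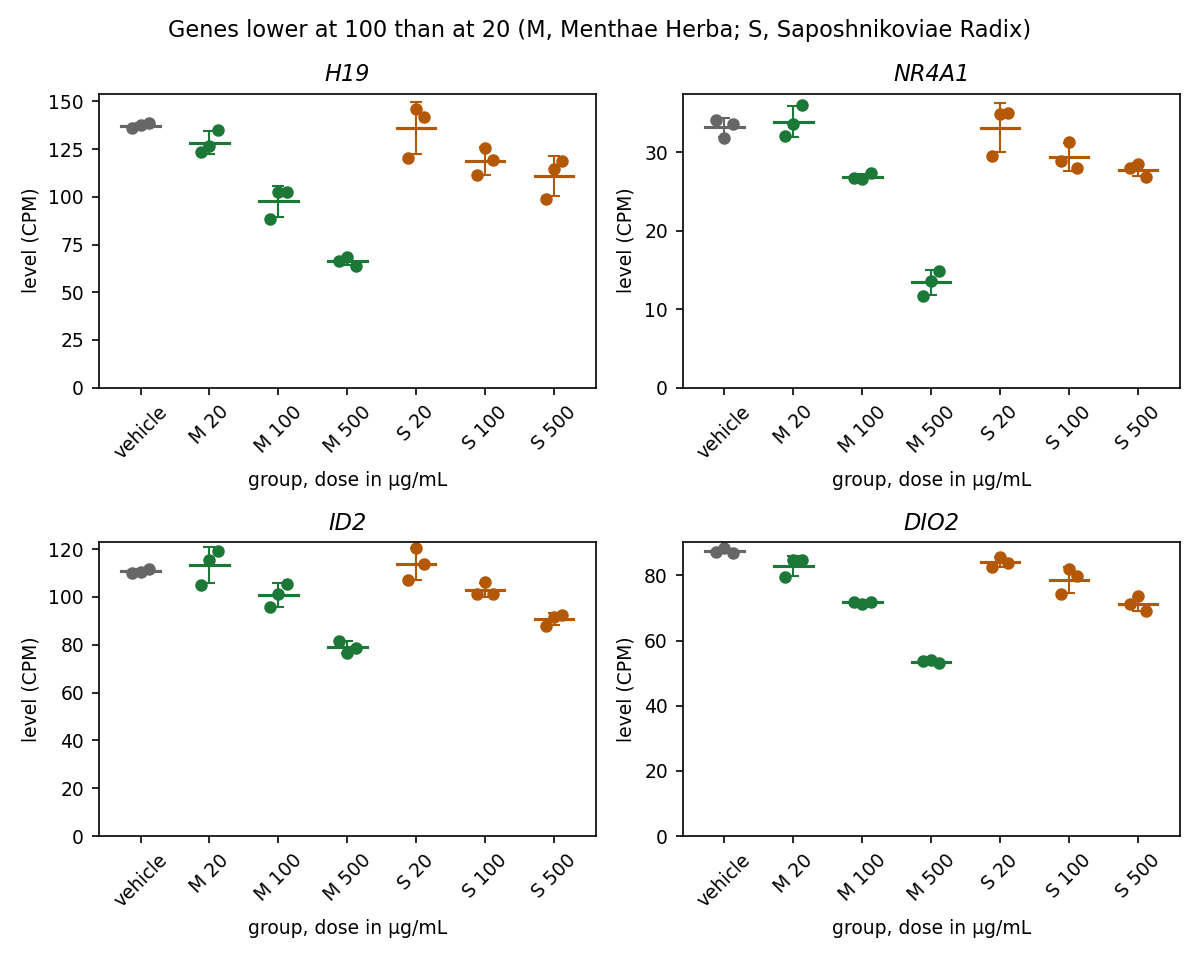
Levels of H19, NR4A1, ID2 and DIO2 in CPM (y axis) by extract and dose (x axis); points are libraries, horizontal lines means and bars the SD of 3 libraries. NR4A1 at 100 stood at 26.59 to 27.32 CPM with Menthae Herba and at 27.97 to 31.36 CPM with Saposhnikoviae Radix, beside 31.82 to 34.19 CPM in the vehicle.

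The ID genes encode proteins that hold back helix-loop-helix transcription factors and are direct targets of BMP signalling. ID2 held 105, 116 and 119 CPM at 20 and 95.9, 101 and 106 CPM at 100 with Menthae Herba, and 107, 121 and 114 CPM at 20 and 101, 106 and 101 CPM at 100 with Saposhnikoviae Radix. ID3 held 157, 162 and 169 against 141, 153 and 143 CPM, and 154, 173 and 159 against 150, 147 and 148 CPM, in the same order. Every ID3 library at 100 lay below every one at 20 of its extract, while ID2 overlapped slightly with Menthae Herba. The pooled log2 fold changes were −0.11 ± 0.029 for ID1, −0.15 ± 0.032 for ID2, −0.14 ± 0.029 for ID3 and −0.27 ± 0.056 for ID4 (SE), with adjusted p of 0.55, 0.11, 0.0896 and 0.106. ATOH8, another BMP target, had −0.23 ± 0.060 and the ligand BMP6 −0.18 ± 0.047, with an adjusted p of 0.392 for each. Of the 16 genes of the list of BMP and ID genes, 0 passed the test, 12 lay below 0, the median was −0.12, and 7 had an unadjusted p under 0.05 and a lower value, beside 2.73% of all genes. The 7 were ID1 to ID4, ATOH8, BMP6 and BAMBI. The feedback inhibitors SMAD6 and SMAD7, at −0.04 and −0.05, and the ligand BMP4, at 0.03, were close to 0. Unlike CYP1B1, no ID gene was shown to differ between the herbs: for ID3 the difference of the changes was −0.05 with a 95% interval of −0.17 to 0.07, and for ID4 −0.09 (−0.32 to 0.14). Each interval reached values as large as the pooled change of its gene, so it does not show that the herbs were alike. DESeq2 and the fit without Saposhnikoviae Radix 20 replicate 1 called ID2 and ID3.

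**Figure D4:**
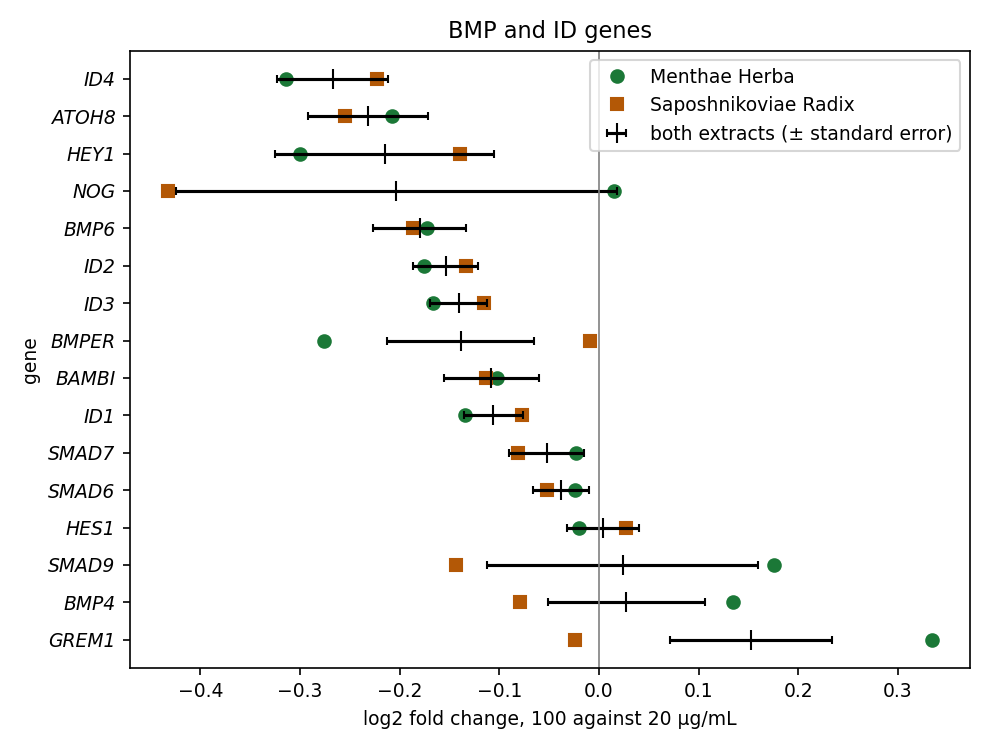
Log2 fold change from 20 to 100 µg/mL (x axis) of the 16 BMP and ID genes (y axis); circles are Menthae Herba, squares Saposhnikoviae Radix, and black bars the pooled value with its standard error. The pooled values run from −0.27 (ID4) to 0.15 (GREM1), and 12 of 16 lie below 0.

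The naming rule also gave FCGBP, F11R and GPRC5A as lower and GSTZ1 and TUBA1B-AS1 as higher, none of them past the threshold. FCGBP, a mucus protein that binds immunoglobulin, held 14.1, 14.3 and 12.9 CPM at 20 and 10.97, 12.7 and 9.37 CPM at 100 with Menthae Herba. With Saposhnikoviae Radix it held 11.6, 16.8 and 14.5 CPM at 20 and 8.64, 9.99 and 9.16 CPM at 100. The doses were apart in both extracts, and the pooled value was −0.47 ± 0.083 (SE), adjusted p 0.0537. F11R, a tight junction adhesion protein, had −0.14 ± 0.025 and GPRC5A, a retinoic acid-induced receptor of lung epithelium, −0.15 ± 0.027, both with an adjusted p of 0.0537. GSTZ1, an enzyme of tyrosine breakdown, had 0.14 ± 0.037 (adjusted p 0.388). TUBA1B-AS1, an antisense transcript, ranged from 0.189 to 3.55 CPM at 20 and from 0.962 to 18.7 CPM at 100, overlapped in both extracts, and cannot be told from its sense partner since the strand setting of the counting is not given. Of all genes, 37 (0.225%) lay above and 51 (0.31%) below with no overlap of doses in either extract. CYP1B1 was the 1 named gene among the first, and CXCL5, DIO2, F11R, FCGBP, GPRC5A, ID3 and ID4 were the 7 among the second, several of them named for their small p in these same libraries.

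The groups at 500 µg/mL and the vehicle share no library with the 12, and gave a second reading of the same genes at a higher dose. The vehicle libraries, B1-1-1 to B1-3-1, stood first in the library series, before the herb libraries, whose names all begin with 5. Place in the series and treatment therefore cannot be told apart in this comparison. There 3237 of 16511 genes (19.6%) passed edgeR's test, 1527 higher (9.25%) and 1710 lower (10.4%), and 32.3% had an unadjusted p under 0.05. Of the AhR targets 6 of 11 rose and 1 fell, and of the BMP and ID genes 1 of 16 rose and 8 fell. The count fell to 2055 without Vehicle replicate 2 and to 1022 in a fit of 57 libraries. As the mean of both herbs, CYP1A1 rose by 2.02 ± 0.15 (SE) on the log2 scale, CYP1B1 by 0.83 ± 0.026, TIPARP by 0.81 ± 0.032 and AHRR by 0.72 ± 0.086. NR4A1 fell by 0.82, NR4A3 by 0.81, H19 by 0.72, DIO2 by 0.55, ID4 by 0.55, ATOH8 by 0.45, ID2 by 0.43, ID3 by 0.41 and GPRC5A by 0.32. All of these moved in the direction of their 100-against-20 values. ID1 also fell, by 0.12, and NR4A2 (−0.31) did not pass. Their means, like those of F11R, were above the vehicle at 20 and at 100. ID1 stood at 162.9 CPM in the vehicle, 191.6 and 189 at 20, and 175.8 and 177.8 at 100 (Menthae Herba first). In that order NR4A2 stood at 4.08, 5.17 and 5.50, and 4.31 and 4.42 CPM. F11R stood at 53.2, 59.3 and 62.8, and 54.5 and 56.0 CPM. F11R (−0.06) and GSTZ1 (−0.03) did not pass. FCGBP went the other way and rose by 0.36 (adjusted p 0.00974), but its adjusted p was 0.0998 without Vehicle replicate 2, and its vehicle libraries held 12.8, 9.29 and 12.4 CPM, with 5 of the 6 libraries at 20 above all of them. TUBA1B-AS1, whose pooled value at 100 against 20 was 2.68, also went the other way and fell by 7.16 at 500 (adjusted p 4.66e-13). Its vehicle libraries held 67.7, 63.1 and 88.5 CPM, and those at 500 held 0.353, 0.407 and 2.81 CPM with Menthae Herba and 0.349, 0.273 and 0.109 CPM with Saposhnikoviae Radix. All 12 libraries at 100 or 20 were also below the vehicle, at 18.7 CPM or less. The Soyo-san and Okbyeongpung-san libraries at 100 and 20 held 40.13 to 340.1 CPM. Low values were thus found in the herb libraries at every dose, and their cause was not tested.

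CYP1B1 thus stood at 95.7 ± 1.38 CPM in the vehicle, 97.1 ± 2.49 at 20, 131.0 ± 1.33 at 100 and 222.1 ± 5.32 at 500 with Menthae Herba (SD, n = 3). With Saposhnikoviae Radix it stood at 97.8 ± 3.76, 103.5 ± 0.746 and 137.5 ± 3.73 CPM at these doses. The libraries at 20 overlapped the vehicle range in both extracts, and Saposhnikoviae Radix at 500 was near Menthae Herba at 100. NR4A1 stood at 33.2 ± 1.24 CPM in the vehicle, 34.0 ± 1.96 at 20, 26.9 ± 0.398 at 100 and 13.4 ± 1.58 at 500 with Menthae Herba. With Saposhnikoviae Radix it was 33.2 ± 3.11, 29.4 ± 1.75 and 27.8 ± 0.829 CPM, a shallower descent. At 500 the herbs were unequal for other genes too, a difference that was not tested. CYP1A1 stood at 7.51 CPM with Menthae Herba and 2.34 with Saposhnikoviae Radix, beside 1.02 in the vehicle. In the same order TIPARP stood at 98.9, 51.0 and 39.3 CPM, AHRR at 10.9, 6.30 and 4.92, and H19 at 66.3, 110.8 and 137.4.

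Over the whole table the signs of both comparisons were compared as a description. Of the 247 genes of 5 CPM or more with an unadjusted p under 0.05 and a higher value at 100, 61.9% were also higher at 500 than in the vehicle, beside 52.9% of all genes with a higher value. Of the 347 lower ones, 64% were lower there, beside 51.6%. Between the herbs, 45.9% of the 327 genes higher with Menthae Herba at that p were higher with Saposhnikoviae Radix, beside 48.9% of all. Of the 404 lower ones, 57.7% were lower there, beside 46.7%. For genes chosen with Saposhnikoviae Radix and read with Menthae Herba, the shares were 45.6% of 250 and 57.5% of 233. Beside these stood 46.6% and 49.1% of all. Across 11025 genes of 5 CPM or more, Pearson's r of the pooled change with that at 500 was −0.155 and Spearman's rho 0.07, and between the changes of the herbs r was 0.124 and rho −0.0241. Among these genes was TUBA1B-AS1, with extreme values of 2.68 pooled and −7.16 at 500, and of 2.52 and 2.90 in the herbs. Pearson's r, unlike rho, is sensitive to such a point, and the part of TUBA1B-AS1 in r was not tested. The shares and correlations are descriptions across genes, which are not independent replicates, and the points of each comparison share libraries.

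**Figure D5:**
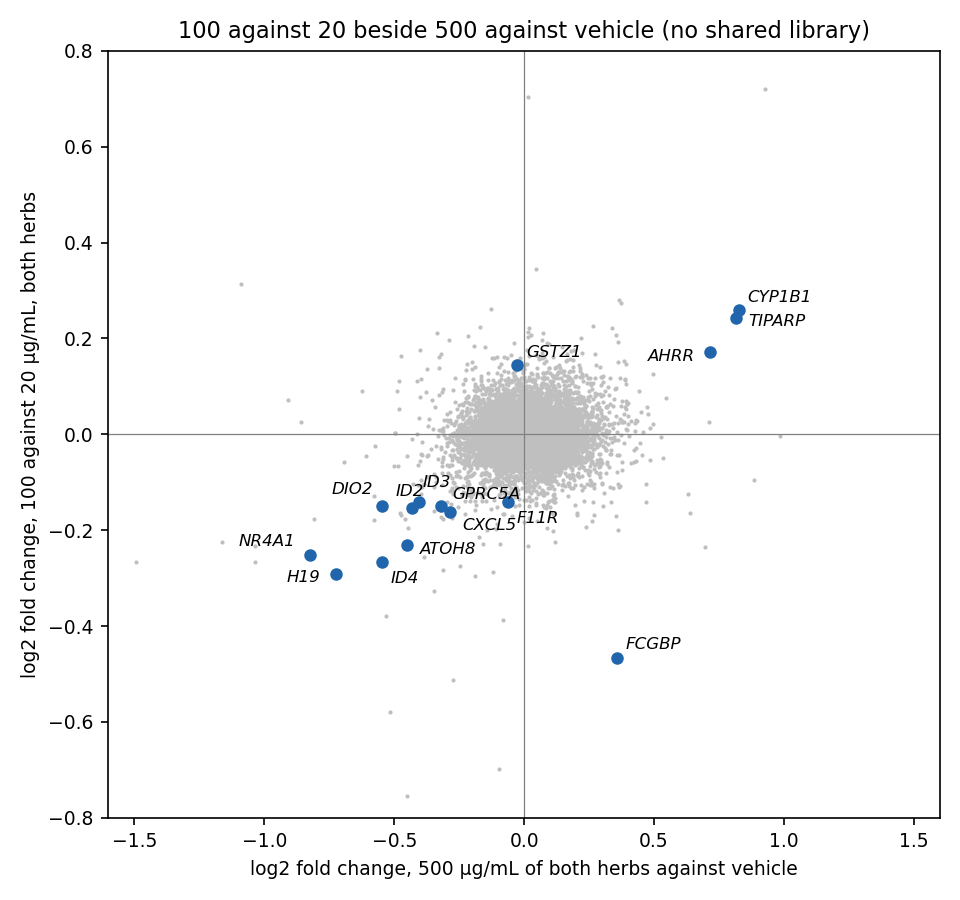
Log2 fold change at 100 against 20 µg/mL of both herbs (y axis) beside that at 500 µg/mL of both herbs against the vehicle (x axis); each grey point is 1 of 11025 genes of 5 CPM or more, 4 of which lie outside the axes, and named genes are blue. CYP1B1 stands at 0.26 and 0.83, H19 at −0.29 and −0.72, and FCGBP at −0.47 and 0.36.

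The change from 20 to 100 in the herbs was also set against that in 2 decoctions, Soyo-san and Okbyeongpung-san. Of 16738 genes, 1 passed edgeR's test of the difference (0.00597%). That gene was CXCL5 (chr4:73995642-73998779, minus strand), a chemokine that draws neutrophils, with a difference of −0.50 ± 0.046 (SE) on the log2 scale, adjusted p 1.54e-06. It was called in 24 of 24 fits that left out 1 library. CXCL5 stood at 54.6 ± 3.33 CPM at 20 and 47.3 ± 1.15 CPM at 100 with Menthae Herba (SD, n = 3), and at 55.6 ± 1.53 and 51.1 ± 1.11 CPM with Saposhnikoviae Radix. In Soyo-san it stood at 53.9 ± 3.91 and 73.7 ± 4.70 CPM, and in Okbyeongpung-san at 58.8 ± 1.90 and 69.6 ± 2.96 CPM. At 20 the libraries of all 4 extracts lay between 49.71 and 60.93 CPM, while at 100 the herb libraries lay between 45.99 and 52.29 CPM and the decoction libraries between 66.18 and 77.54 CPM. CXCL5 alone in the herbs had a pooled value of −0.16 ± 0.030 (SE), adjusted p 0.0677. Of 18 tested NF-kB and chemokine genes, 17 had a value below 0 in this difference, with a median of −0.16 beside −0.00015 over all genes, and 10 had an unadjusted p under 0.05, beside 1.35% of all genes lower at that p. CYP1B1 had a difference of 0.20 (95% interval 0.12 to 0.28) with an adjusted p of 0.222, and CYP1A1 0.51 (0.05 to 0.97). The decoction libraries stood later in the library series than the herb libraries. Their mitochondrially encoded share was 12.92 to 18.37%, beside 10.91 to 12.9% in the herb libraries. The fitted coefficient of variation among libraries was 0.0461 here, beside 0.031 in the pooled fit, so this test was the less sensitive. The part of place and of that share in the difference was not tested.

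The other lists had 0 members past the pooled threshold. Median log2 fold changes were 0.01 for 28 NRF2 targets, −0.0028 for 24 genes of cholesterol synthesis, 0.01 for 28 ATF4 and stress response genes, −0.01 for 20 heat shock genes, 0.02 for 20 p53 targets and 0.01 for 26 genes of mitosis. Of 19 genes of endoplasmic reticulum chaperones and the unfolded protein response, 16 lay below 0 with a median of −0.02, and 4 had an unadjusted p under 0.05 and a lower value, beside 2.73% of all genes. At 500 the same 19 genes had 17 values above 0 and a median of 0.06, and 5 rose and 2 fell. Of 34 cytosolic ribosomal protein genes, 28 lay above 0 with a median of 0.01 and 0 had an unadjusted p under 0.05. By herb, 29 of the 34 lay below 0 with Menthae Herba (median −0.03) and 34 of 34 above 0 with Saposhnikoviae Radix (median 0.04). In the difference 33 of 34 lay below 0 and 0 passed edgeR's test, with 3 at an unadjusted p under 0.05 beside 2.67% of all genes lower. HMOX1, the haem oxygenase that answers oxidative stress, had a pooled value of 0.03 with a 95% interval of −0.03 to 0.08, while at 500 it rose by 0.38.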

How the data were processed

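RNA from A549 cells was sequenced as directional mRNA libraries, per the labels' protocols. The authors deposited expected counts per gene, which are estimated counts and need not be whole, made with FastQC 0.11.9, Trim Galore 0.6.5, STAR 2.7.3a and RSEM 1.3.3 on hg38 (GRCh38), per the submitters' processing notes. The annotation release and strand setting are not given in the sources used here. The table held 60675 genes, of which 41209 took a symbol from the current gene table, 15846 from GENCODE 29, and 3620 had none (0.0703 to 0.0819% of counts). Positions are from GENCODE 29. Counts were rounded (10.5% of cells were not whole).

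Each of 6 comparisons was fitted across all genes with edgeR 4.0.16 (limma 3.58.1, R 4.3.3): TMM scaling, filterByExpr, quasi-likelihood test, Benjamini-Hochberg adjusted p under 0.05. The pooled fit had terms for extract and dose; a fit of 4 group means gave each extract and their difference. CPM is per library total. Intervals are 95% intervals of the fit. The scripts were tested on simulated data. DESeq2 1.42.0, other scalings, filters, fits, replicate blocks and leaving out each library were alternatives; the mitochondrial share as a covariate was chosen after seeing the data.

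The members, the 33 gene lists and the tests were chosen with earlier results of these data known. CYP1A1, CYP1B1, the AhR targets, TIPARP, AHRR, the NR4A and ID genes, ATOH8, HMOX1 and NQO1 are always named. Further genes of the pooled comparison are the 12 highest and 12 lowest that passed at 5 CPM or more with 1 sign in both extracts, filled to 5 a direction by smallest p where fewer passed. In the other comparisons they are the 4 highest and 4 lowest that passed at 5 CPM or more, and per list up to 3 that passed in each direction. A gene the rule names is not reported here.

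Counts of replicates differed by 2.33 to 5.96 times the sampling noise (chi-square per degree of freedom, 12 pairs), so none was a copy.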

Additional observations from a re-analysis of the deposited data

Results flagged for a closer look

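The change of CYP1B1 from 20 to 100 differed between the herbs, by 0.327 on the log2 scale (Menthae Herba minus Saposhnikoviae Radix), in a test of the difference itself (edgeR, adjusted p 0.0161). All CYP1B1 libraries at 100 lay above all at 20 of their herb, as in 0.225% of all genes. With Saposhnikoviae Radix the gap was narrow, 102.7 CPM at 100 against 101.7 CPM at 20.

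FAM157B differed in the same test by 8.62 on the log2 scale (edgeR, adjusted p 0.0242). Its libraries with Menthae Herba held 0, 0.0358 and 0 CPM at 20 and 0.285, 0.79 and 0.0387 CPM at 100, and those with Saposhnikoviae Radix 1.12, 1.48 and 0.944 CPM at 20 and 0.169, 0 and 0 CPM at 100. Groups at or near 0 make this fitted value depend on the prior count, and it is no bound. It was called in 6 of 12 fits that left out 1 library.

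The change of CXCL5 differed between the herbs and the decoctions by −0.495 on the log2 scale (edgeR, adjusted p 1.54e-06).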

How the results depend on the processing

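The pooled count of 0 was 0 with RLE scaling and with unrounded counts, 127 with no filter, 16 at a mean of 5 CPM or more, 21 with DESeq2, 5 in a fit of 57 libraries, 19 in a fit of 21, 12 with 4 group means and 4 with the mitochondrial share as a covariate. Menthae Herba's 7 became 145 with no filter, 13 at 5 CPM or more, 28 with DESeq2 and 15 with 21 libraries. Saposhnikoviae Radix's 0 became 126 with no filter, 2 with DESeq2 and 1 with the covariate. The 2 of the difference became 131 with no filter and 1 with DESeq2, 57 or 21 libraries. At 500 the 3237 became 1022 with 57 libraries, and the 1 of herbs minus decoctions became 80 with no filter and 2 with DESeq2. The cause was not tested.

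Leaving out 1 library gave 0 to 13 (pooled), 1 to 8 (Menthae Herba), 0 to 3 (Saposhnikoviae Radix), 0 to 4 (difference), 2055 to 3162 (500) and 1 to 1 (decoctions). The mitochondrial difference ran from −0.032 to 0.331 percentage points. The sign turned within −0.00136 to 0.0157 for NQO1, −0.0195 to 0.0315 for ALDH3A1, −0.0311 to 0.0142 for LTBP1, −0.00243 to 0.0314 for EREG and, at 500, −0.0572 to 0.00734 for GSTZ1.

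The replicate numbers did not pair the samples: r of same-numbered libraries of 1 extract was −0.0635 to 0.0242 (6 pairs), and 2 of 12 libraries correlated best with their own number. With the replicate block of 6 blocks the counts were 5 (pooled), 10 (Menthae Herba), 7 (Saposhnikoviae Radix) and 6 (difference). With 3 blocks they were 8, 9, 1 and 4, and 1 for the decoctions. The mitochondrial difference had an exact permutation p of 0.781 within pairs. For AHRR, at 4.38 to 6.95 CPM, the pooled 95% interval ran from −0.02 to 0.36.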

Other observations

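The secreted mucins MUC5B and MUC5AC, gel-forming proteins of airway mucus, had lower values at 100 in both herbs and were chosen here after their values were seen. MUC5B held 63.5 ± 3.79 CPM at 20 and 49.7 ± 3.87 CPM at 100 with Menthae Herba (SD, n = 3), and 71.5 ± 15.1 and 53.7 ± 8.91 CPM with Saposhnikoviae Radix. Its pooled log2 fold change was −0.38 ± 0.079 (SE, edgeR adjusted p 0.106), and MUC5AC had −0.17 (adjusted p 0.262). Both were called without Saposhnikoviae Radix 20 replicate 1. At 500 MUC5B fell by 0.53 and MUC5AC by 0.32. PTGS2, the inducible cyclooxygenase, had −0.26 (adjusted p 0.0818) and at 500 fell by 0.38.

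Of 10 tested complement and acute phase genes, 6 lay below 0 and 4 above in the pooled comparison, with a median of −0.07 and values up to 0.30 (CFI). The fibrinogen chains FGA, FGB and FGG stood at −0.07, −0.09 and −0.07, complement C3 at −0.12 and the complement regulator CD55 at −0.11. These were the 5 of the 10 with an unadjusted p under 0.05 and a lower value, beside 2.73% of all genes, and 0 passed edgeR's test. At 500 FGB fell by 0.25, CD55 by 0.22, and FGA and FGG by 0.15 each, while C3 (−0.09) did not pass. Of 17 tested selenoprotein genes, 3 had an unadjusted p under 0.05 and a lower value, beside 2.73% of all genes: DIO2, GPX2 (−0.09) and SELENOH (−0.11).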
